A study of Mus musculus with 2 samples.

Results

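Cytochrome P450 enzymes cannot act on a steroid without a supply of electrons, and 8 genes of that supply are described here: Fdx1, Fdxr, Por, Cyb5a, Cyb5b, Cyb5r3, Pgrmc1 and Pgrmc2. They were chosen by name, and all 8 were found by matching Ensembl gene identifiers to symbols, among 43346 Ensembl genes in the gene tables. The samples were 2 polyadenylated RNA libraries, called replicate 2 and replicate 1, from the adrenal gland of 1 adult female C57BL/6J mouse sample aged 10 weeks. Per the labels both are technical repeats from the same biological material, and replicate 2 was performed later than replicate 1. Every difference is therefore between 2 libraries and not between animals or conditions, and no error given here covers variation between animals.

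In the adrenal cortex the electrons take separate routes to P450 enzymes in mitochondria and in the endoplasmic reticulum. In mitochondria, ferredoxin reductase (Fdxr) takes electrons from NADPH and hands them to the small iron-sulfur protein ferredoxin (Fdx1), which carries them to the side-chain cleavage enzyme Cyp11a1 and to Cyp11b1 and Cyp11b2, the last enzymes of corticosterone and aldosterone synthesis. In the endoplasmic reticulum a single flavoprotein, P450 oxidoreductase (Por), serves the 21-hydroxylase Cyp21a1 and the other microsomal P450 enzymes. Cytochrome b5 (Cyb5a, with Cyb5b on the outer mitochondrial membrane) is a small heme protein that assists some P450 reactions and feeds fatty acid desaturases, and Cyb5r3 reduces it with NADH. Pgrmc1 and Pgrmc2 are heme-binding membrane proteins with a cytochrome b5-like fold that have been found in complexes with P450 enzymes.

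The iron-sulfur and heme sites that carry the electrons are visible in the coding sequences of Fdx1 and Cyb5b, which are shown as examples of an iron-sulfur carrier and of a heme carrier among the 8 genes. Capitals mark the cysteine codons of the iron-sulfur loop in Fdx1, which are separated by 5 and then 2 other codons, and the His-Pro-Gly-Gly codons of the heme site in Cyb5b. Both stretches are on the coding strand, from GENCODE M21 transcripts on GRCm38. Each is from the M21 version of the only deposited model of its gene. The Fdx1 stretch runs over exons 2 and 3 (bases 395 to 448), on the minus strand of chromosome 9. The Cyb5b stretch runs over exons 1 and 2 (bases 217 to 264), on the plus strand of chromosome 8.
Fdx1: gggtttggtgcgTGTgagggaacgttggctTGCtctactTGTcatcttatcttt
Cyb5b: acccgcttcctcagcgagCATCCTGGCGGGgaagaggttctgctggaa
In a search of the coding sequence of 1 model per gene, the 4 heme-site codons were found in frame once in Cyb5a and once in Cyb5b and in none of the other 6 genes. The coding sequences searched for Pgrmc1 (585 bases) and Pgrmc2 (651 bases) thus do not hold these codons in frame.

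Replicate 2 held 17376673 counts (estimated fragments, rounded per gene) and replicate 1 held 28267664. Genes of the mitochondrial genome and their nuclear copies took 10.6% and 4.66% of counts in replicate 2, against 40.1% and 13.0% in replicate 1. Levels are therefore given as TPM (abundance corrected for transcript length and scaled to the same sum in every library) rescaled over nuclear genes, called nuclear TPM, beside the deposited TPM. Cortex markers (Hsd3b1, Star, Cyp11b1, Cyp21a1, Mc2r and Nr5a1) all passed a TPM of 1 in replicate 2 and in replicate 1. So did 4 of 5 medulla markers, and Pnmt had 4291 counts in replicate 2 and 0 in replicate 1. By an exact binomial test on scaled counts, with a 2-fold minimum, 4 of 5 medulla, 5 of 5 erythroid, 5 of 5 skeletal muscle and 2 of 5 adipocyte markers were higher in replicate 2, against 36.4% of all genes tested. After removal of the trend of the ratio with G+C content the numbers higher were 3, 3, 3 and 4 in the same lists. The share of all genes was then 12.6%, and the medulla marker Chgb was lower. Of 6 cortex markers 2 (Cyp21a1 and Nr5a1) were higher and 1 (Mc2r) lower, against 36.4% and 27.8% of all genes. After G+C removal 1 was higher and 0 lower, against 12.6% and 13.4%. The summed deposited TPM of the erythroid list was 2973 in replicate 2 and 49.3 in replicate 1. It was 322 and 11.1 for the muscle list and 2411 and 463 for the adipocyte list. As nuclear TPM these sums were 4823 and 282, 523 and 63.3, and 3911.5 and 2645. Liver markers summed to 288 and 111 TPM, or 467 and 634 nuclear TPM. Of the deposited sum Cyp2e1 made up 286 and 111 TPM. Alb was at 0.99 and 0.19 TPM, and Apoa1 and Serpina1a had no counts in replicate 1. Kidney markers summed to 0.38 and 0.15 TPM, or 0.62 and 0.86 nuclear TPM, with no counts of Umod, Miox or Slc34a1 in either library. The part of these cells in the results was not tested, and in bulk RNA more cells of a type and more RNA per cell cannot be told apart.

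Each of the 8 genes passed a TPM of 1 in each library, and their summed nuclear TPM was 5538 in replicate 2 and 5078 in replicate 1. The order of the genes within that sum differed. In replicate 2 the mitochondrial pair led, with Fdxr first and Fdx1 next, followed by Cyb5b, Pgrmc1, Cyb5a, Cyb5r3, Por and Pgrmc2. In replicate 1 Pgrmc1 led, followed by Cyb5b, Fdx1, Cyb5a, Cyb5r3, Pgrmc2, Por and Fdxr. Neighbours in each order were separated by the deposited intervals of their posterior mean TPM, whose level is not stated, except Cyb5a and Cyb5r3 in replicate 2 and Por and Fdxr in replicate 1. Por stood below Cyb5r3, Cyb5a, Cyb5b, Pgrmc1 and Fdx1 in both libraries.

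**Figure D1:**
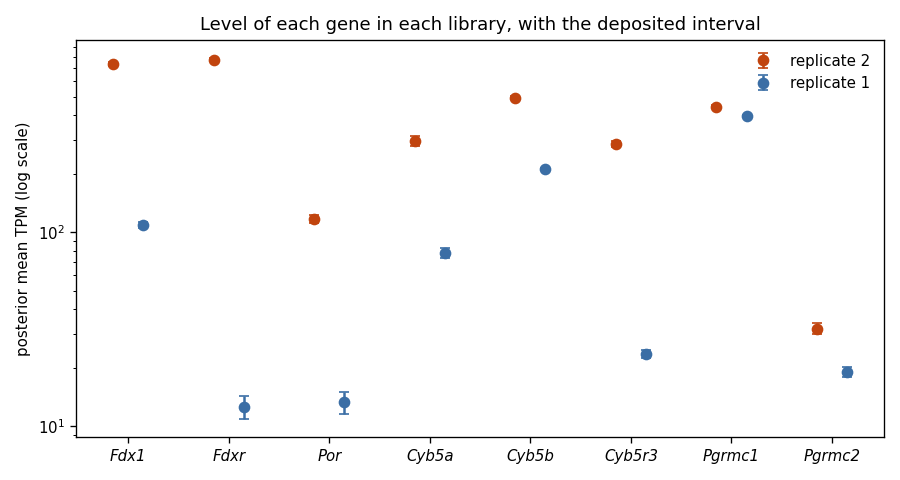
Posterior mean TPM (log axis) of each of the 8 genes in replicate 2 and replicate 1, with the deposited interval as bars. Fdxr lies at 776 in replicate 2 and 12.6 in replicate 1, and Pgrmc1 at 444 and 399.

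The libraries were compared on counts scaled with TMM, by a two-sided exact binomial test per gene with Benjamini-Hochberg adjustment over 14358 genes. A gene was called at an adjusted p under 0.05 and a difference of at least 2-fold. By this rule 3 of the 8 members were called higher in replicate 2 (Fdxr, Por and Cyb5r3), against 36.4% of all tested genes, and 2 were called lower (Pgrmc1 and Pgrmc2), against 27.8% of all tested genes. Of all calls 56.7% were higher, against 66.1% with nuclear total counts and 93.2% with total counts as library sizes. Of 8 members, 3 and 2 are no result about them beside such shares. Fdx1, Cyb5a and Cyb5b were not called. The median log2 ratio of replicate 2 to replicate 1 was 0.45 over the members and 0.10 over all tested genes. For each list of other genes the same shares are the background to its counts, and counts with the G+C trend removed are to be read against 12.6% higher and 13.4% lower. Intervals are exact, at 95%, and cover counting error only.

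On TMM-scaled counts Fdxr showed the largest difference of the 8 genes, an order that did not hold with the G+C trend removed, where Fdx1 was at a log2 ratio of 2.08 and Fdxr at 1.63. It had 17153 counts in replicate 2 and 256 in replicate 1, that is 1352 and 72.9 nuclear TPM (833 and 12.8 TPM as deposited). Among nuclear genes it ranked 64 in replicate 2 and 2745 in replicate 1. On scaled counts it was 49.5-fold higher in replicate 2 (interval 43.8 to 56.3). Its gene lies on chromosome 11 at 115268024 to 115277050, minus strand (GRCm38, M21).

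Fdx1, the carrier that Fdxr reduces, differed far less. It had 6639 counts in replicate 2 and 2501 in replicate 1, or 1286 and 639.5 nuclear TPM, and ranked 73 and 232. The scaled ratio was 1.96 (interval 1.88 to 2.06), which missed the 2-fold minimum. It passed with nuclear total counts (log2 ratio 1.26), total counts (2.11) or the G+C trend removed (2.08). It did not pass when that trend used the G+C content of its deposited model (0.82). The TPM ratio of Fdxr to Fdx1 was 1.05 in replicate 2 and 0.114 in replicate 1. With the effective gene lengths of replicate 2 in both libraries, a recomputation chosen after seeing the data, it was 0.0417 in replicate 1. The gene lies on chromosome 9 at 51943306 to 51963556, minus strand, and the deposited tables hold 1 transcript model of it.

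The mitochondrial P450 enzymes exceeded their carrier in both libraries. Summed over Cyp11a1, Cyp11b1, Cyp11b2, Cyp27a1, Cyp27b1 and Cyp24a1, they stood at 12.1 times the TPM of Fdx1 in replicate 2 and 19.1 times in replicate 1. Relative to Fdxr the same sum stood at 11.5 times in replicate 2 and 167 times in replicate 1, or 438 times in replicate 1 with the gene lengths of replicate 2. Most of the sum was Cyp11b1 (5203 TPM in replicate 2 and 1870 TPM in replicate 1) and Cyp11a1 (4097 and 263 TPM). As nuclear TPM Cyp11b1 was at 8441 and 10688, and Cyp11a1 at 6647 and 1501. Cyp11b2 was at 256 and 2.89 TPM and Cyp24a1, which breaks down vitamin D, had no counts. Of the 4 tested, 3 were called higher, against 36.4% of all genes, and the median log2 ratio was 2.48. After G+C removal 2 were higher, with a median of 1.25.

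Por, the only reductase listed for the microsomal enzymes, had 3603 counts in replicate 2 and 258 in replicate 1. Its scaled ratio was 10.3-fold (interval 9.11 to 11.8), a call that was lost with the G+C trend removed (log2 ratio -0.22). On nuclear TPM, however, the levels were 199 in replicate 2 and 75.6 in replicate 1, a log2 ratio of 1.39, against 3.37 on scaled counts. The 2 scales differ by the effective gene length: the length that TPM divides by was 2358 bases in replicate 2 and 587.5 bases in replicate 1. With the length of replicate 2 used for both libraries, Por stood at 18.8 nuclear TPM in replicate 1. The gene lies on chromosome 5 at 135670033 to 135735326, plus strand. Gm16061, a pseudogene on the other strand inside it, had 0 counts in both libraries.

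The effective length follows the transcript models that reads are assigned to, and for Por these differed. In replicate 2 the full-length model Por-201 (2636 bases, 16 exons) held 3512 counts and 94.0% of the gene, and the short model Por-209 (747 bases, 7 exons) held 4.23 counts and 0.50%. In replicate 1 Por-201 held 0 counts and 0%, with an upper deposited bound of 0.250 TPM, and Por-209 held 235 counts and 95.8%. Por-209 shares 670 bases with Por-201 and adds 77 bases of its own. It ends within exon 7 of Por-201. The shared bases are 53.7% G+C, and the 1966 bases found only in Por-201 are 59.9% G+C.

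A stretch of each kind of Por exon shows this difference in composition. Capitals mark G and C, both stretches are on the plus strand of GRCm38, and each is the middle 90 bases of its exon. The exon 5 stretch (chr5:135730259-135730348) is in both models and is 56.7% G+C. The exon 13 stretch (chr5:135734117-135734206) is in Por-201 only and is 62.2% G+C.
Exon 5: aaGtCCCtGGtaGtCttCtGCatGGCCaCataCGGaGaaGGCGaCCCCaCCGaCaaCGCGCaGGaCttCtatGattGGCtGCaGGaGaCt
Exon 13: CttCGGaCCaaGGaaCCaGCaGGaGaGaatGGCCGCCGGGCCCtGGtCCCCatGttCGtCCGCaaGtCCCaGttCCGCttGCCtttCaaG

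In Fdxr the leading model also differed between the libraries, but all its models held fewer counts in replicate 1. Fdxr-201, the coding model of 1948 bases and 12 exons, held 16680 counts and 91.2% of the gene in replicate 2, against 37.3 counts and 5.01% in replicate 1. Fdxr-202 (861 bases) and Fdxr-203 (544 bases), which the annotation lists as processed transcripts without a coding sequence, held 215 and 192 counts in replicate 2, against 129 and 69.6 counts in replicate 1. They made up 3.08% and 5.22% of the gene in replicate 2 and 45.2% and 46.2% in replicate 1. Fdxr-202 has 592 bases and Fdxr-203 has 266 bases outside the exons of Fdxr-201, all within its introns. Fdxr-201 is 60.0% G+C, against 52.6% for Fdxr-202 and 54.6% for Fdxr-203. The difference in gene counts thus lay almost wholly in the coding model.

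**Figure D2:**
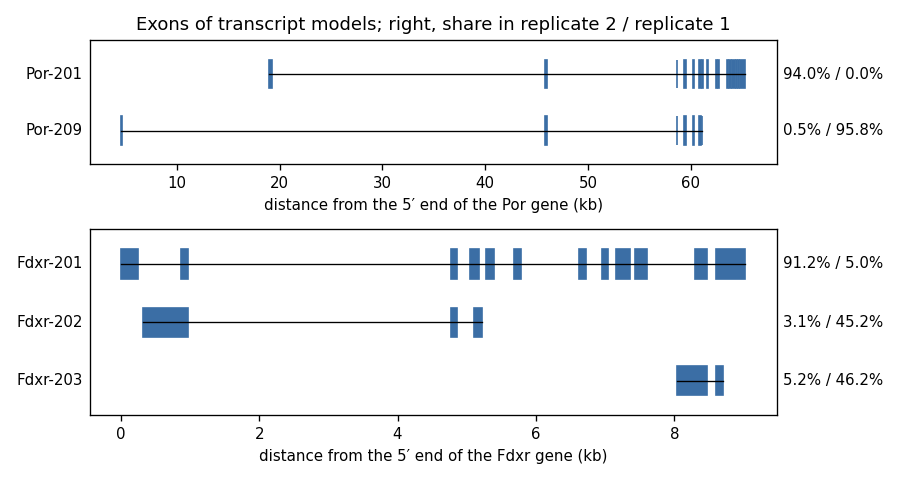
Exons (boxes) of the Por and Fdxr transcript models by distance from the 5′ end of each gene in kb, with the share of each model in replicate 2 and replicate 1 at the right. Por-209 ends before the last exons of Por-201, and the first exon of Fdxr-202 and of Fdxr-203 reaches into an intron of Fdxr-201.

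Of the 5 members with several models, 3 had a different leading model in each library (Por, Fdxr and Cyb5a), as did 31.6% of 5891 nuclear genes with several models and at least 100 counts in each library. In all such genes the leading model of replicate 2 was the longer in 75.9% of those that differed, and in the members it was longer for Por and Fdxr and shorter for Cyb5a. An effective gene length at least 2-fold longer in replicate 2 was found for 2 of the 5 members (Por at 4.01-fold and Fdxr at 2.73-fold) and for 3.56% of the same genes. Cyb5r3 and Pgrmc2 kept 1 leading model. It held 92.8% of Cyb5r3 in replicate 2 and 100% in replicate 1, and 100% of Pgrmc2 in replicate 2 and 97.9% in replicate 1.

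**Figure D3:**
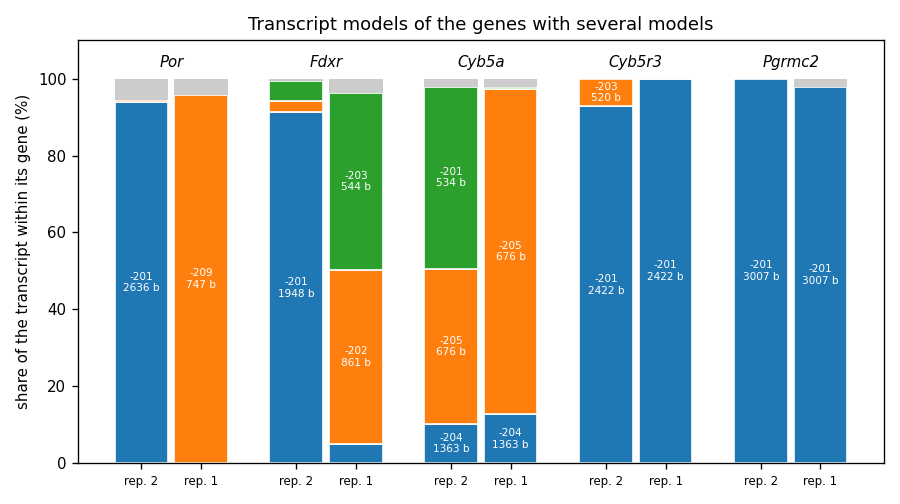
Share of each transcript model within its gene in percent, in replicate 2 and replicate 1, for the 5 genes with several models; segments are labelled with the model's number and length in bases, and grey holds models under 5% in both libraries. Por is 94.0% Por-201 in replicate 2 and 95.8% Por-209 in replicate 1.

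The 7 listed microsomal P450 enzymes summed to 77.5 times the TPM of Por in replicate 2 and 11.5 times in replicate 1. The direction of that difference rested on Cyp21a1, at 9131 TPM in replicate 2 and 97.0 TPM in replicate 1, which has a near-identical copy, Cyp21a2-ps, that the counting could have shared reads with. Without it the ratio was 2.93 in replicate 2 and 4.15 in replicate 1. With the length of replicate 2 for every gene in both libraries it was 77.5 in replicate 2 and 45.7 in replicate 1, Cyp21a1 included. Cyp2f2 stood at 307 and 12.2 TPM. Cyp51, the sterol 14-demethylase, was at 29.6 and 19.7 TPM, or 48.1 and 112 nuclear TPM, while Cyp19a1, the aromatase, had no counts. Of the 5 tested enzymes 2 were called higher and 3 lower, against 36.4% and 27.8% of all genes, with a median log2 ratio of -1.25. After G+C removal 1 was higher and 1 lower, with a median of -0.48.

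Other acceptors of electrons from Por gave 2 of 4 called higher and none lower, with and without the G+C trend, against 36.4% of all genes higher with it and 12.6% without it. They were Hmox1, a heme oxygenase (88.1 TPM in replicate 2 and 3.54 in replicate 1), and Dhcr7, of cholesterol synthesis (336 and 17.3 TPM). Hmox2 (59.6 and 11.5 TPM) and Sqle, which makes squalene epoxide (23.9 and 7.37 TPM, or 38.8 and 42.1 nuclear TPM), were not called. Among 5 other reductases of the same diflavin family, 3 were called higher, against 36.4% of all genes, and none lower. None of these higher calls held with the G+C trend removed, where Nos1 was called lower. Ndor1 stood at 22.5 and 0.88 TPM, Mtrr at 6.43 and 1.23 TPM, and the nitric oxide synthases Nos3 and Nos1 at 5.24 and 0.06 TPM and at 0.48 and 0.05 TPM. All were below Por in each library.

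Of the 2 cytochrome b5 genes, Cyb5b was the more abundant in both libraries. Cyb5b had 27240 counts in replicate 2 and 29706 in replicate 1, or 863 and 1245 nuclear TPM, with a scaled ratio of 0.679 (interval 0.668 to 0.690). Cyb5a had 1935 and 1506 counts, or 514 and 449.6 nuclear TPM. Its scaled ratio of 0.951 (interval 0.889 to 1.02) was the only one of the 8 that missed the threshold of the exact binomial test, with an adjusted p of 0.165. With the length trend removed Cyb5a was called lower, at a log2 ratio of -1.99. The TPM ratio of Cyb5a to Cyb5b was 0.596 in replicate 2 and 0.361 in replicate 1. Cyb5b lies on chromosome 8 at 107150640 to 107187471, plus strand, and has 1 model in the tables.

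Behind the nearly equal counts of Cyb5a, the models differed. Shares of a gene are corrected for length, so a short model can lead with fewer counts. Cyb5a-205, a coding model of 676 bases, held 776 counts and 40.4% of the gene in replicate 2 and 1080 counts and 84.7% in replicate 1. Cyb5a-201 (534 bases, 52.6% G+C), which M21 annotates as a target of nonsense-mediated decay, held 645 counts and 47.4% in replicate 2 and 4.78 counts and 0.53% in replicate 1. Cyb5a-204 held 472 and 389 counts. Gm16146, an antisense gene within the locus, had 0 counts in both libraries.

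Cyb5r3, the NADH-dependent reductase of cytochrome b5, had 7993 counts in replicate 2 and 1779 in replicate 1, or 495 and 137 nuclear TPM. It was 3.33-fold higher on scaled counts (interval 3.16 to 3.50). This call was lost with the length trend removed (log2 ratio 0.96) and turned to lower with the G+C trend removed (-1.32). Relative to the sum of Cyb5a and Cyb5b its TPM was 0.360 in replicate 2 and 0.0809 in replicate 1. Relative to Cyb5r3, Por was at 0.401 in replicate 2 and 0.552 in replicate 1. With the gene length of replicate 2 in both libraries, the value in replicate 1 was 0.129, so the order of the libraries for this ratio turned. Cyb5r3 lies on chromosome 15 at 83153494 to 83172592, minus strand.

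Enzymes that take electrons from cytochrome b5, mainly desaturases and sterol oxidases, gave 2 of 8 called higher and 4 lower, against 36.4% and 27.8% of all genes. Removing the G+C trend left 1 higher and 2 lower and a median log2 ratio of -0.05. Fads2, the delta-6 desaturase, was at 1019 TPM in replicate 2 and 19.6 in replicate 1 and was called higher. Scd1, the stearoyl-CoA desaturase, was at 627 and 361 TPM, or 1018 and 2065 nuclear TPM, and was called lower on scaled counts (log2 ratio -1.05). Scd2, at 559 and 172 TPM, or 907 and 982 nuclear TPM, was not called. Marc1, an amidoxime reductase, had 4 and 5 counts. Among 8 tested relatives of the members 5 were called higher and 1 lower, against the same shares, and after G+C removal 2 were higher and none lower. Cyb5d1 stood at 43.8 and 10.9 TPM, or 71.1 and 62.1 nuclear TPM, and was not called. The reductase Cyb5r4 was at 38.9 and 35.6 TPM, or 63.1 and 203.3 nuclear TPM. It was the 1 relative called lower (log2 ratio -1.67), a call that was lost after G+C removal (-0.23). The secreted b5-like protein gene Nenf was at 62.7 and 0.11 TPM (432 and 2 counts), while Cyb5r2 had no counts. Fdx1l, the second ferredoxin, named here after its values were seen, had 272 and 4 counts, uncertain because Gm38431 and Gm49373 are near-identical to it.

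Pgrmc1 and Pgrmc2 were both lower in replicate 2 on scaled counts. Pgrmc1 had 9927 counts in replicate 2 and 22755 in replicate 1, or 774 and 2347 nuclear TPM, and its rank among nuclear genes was 169 and 26. Its scaled ratio was 0.323 (interval 0.315 to 0.331). Pgrmc2 had 1179 and 1780 counts, or 54.4 and 111 nuclear TPM, with a ratio of 0.490 (interval 0.455 to 0.528). Neither was called with the G+C trend removed or with total counts as library sizes. On deposited TPM both were higher in replicate 2, at 477 and 411 TPM for Pgrmc1 and 33.5 and 19.4 TPM for Pgrmc2. Pgrmc1 exceeded Pgrmc2 by 14.2 times in replicate 2 and 21.2 times in replicate 1. Pgrmc1 lies on chromosome X at 36598206 to 36606079, plus strand, and Pgrmc2 on chromosome 3 at 41066326 to 41083046, minus strand.

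Supply of the cofactors that these proteins hold was measured as further lists. Of 15 genes for iron-sulfur cluster assembly 5 were called higher, 3 lower and 7 were not called, with a median log2 ratio of 0.35. The shares over all genes were 36.4% and 27.8%, and after G+C removal 3 were higher and 3 lower. Iscu, the scaffold on which clusters form, was at 626 TPM in replicate 2 and 28.6 in replicate 1. It was called higher, though not after G+C removal (log2 ratio -0.49). The chaperone Hspa9 (416 and 204 TPM, or 675 and 1165 nuclear TPM) and the glutaredoxin Glrx5 (202.9 and 44.2 TPM) were not called. Of the 4 genes for flavin supply, Rfk, the riboflavin kinase, was at 267 and 318 TPM and was called lower. The mitochondrial carrier Slc25a32 (7.94 and 7.80 TPM, or 12.9 and 44.6 nuclear TPM) was also called lower. Flad1, the FAD synthase (15.4 and 0.20 TPM), and Slc52a2, a riboflavin transporter (6.51 and 0.10 TPM), were called higher. Both higher calls held after G+C removal and both lower calls were lost, with Rfk at -0.08 and Slc25a32 at -0.65.

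The library ratio of the members moved with their base composition. The called-higher genes Fdxr, Por and Cyb5r3 are 58.2%, 57.3% and 56.2% G+C over their annotated transcripts, and the other 5 members lie between 44.7% and 48.8%. Over all tested genes the median log2 ratio was -1.10 at 44 to 46% G+C and 3.38 at 56 to 58% G+C. Genes within 1 percentage point of Por had a median of 3.50, with the middle 50% between 2.34 and 4.69, and Por lay inside that range at 3.37. Fdxr, at 5.63, lay above its own range of 2.70 to 5.22. Cyb5r3 (1.73) lay below its range of 1.90 to 4.16. Fdx1 (0.97) lay above its range of -1.48 to -0.80, and Pgrmc1 (-1.63) below its range of -1.45 to -0.76. Cyb5a (-0.07) lay above its range of -1.07 to -0.19, and Cyb5b (-0.56) above its range of -1.35 to -0.63. Pgrmc2 (-1.03) lay below its range of -0.64 to 0.33. Among the members only Por thus lay inside the middle 50% of genes of like G+C content. The range of Fdx1 is that of genes near 44.7% G+C, its mean over all annotated transcripts. The 1 model of Fdx1 that was quantified is 49.4% G+C in M21.

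**Figure D4:**
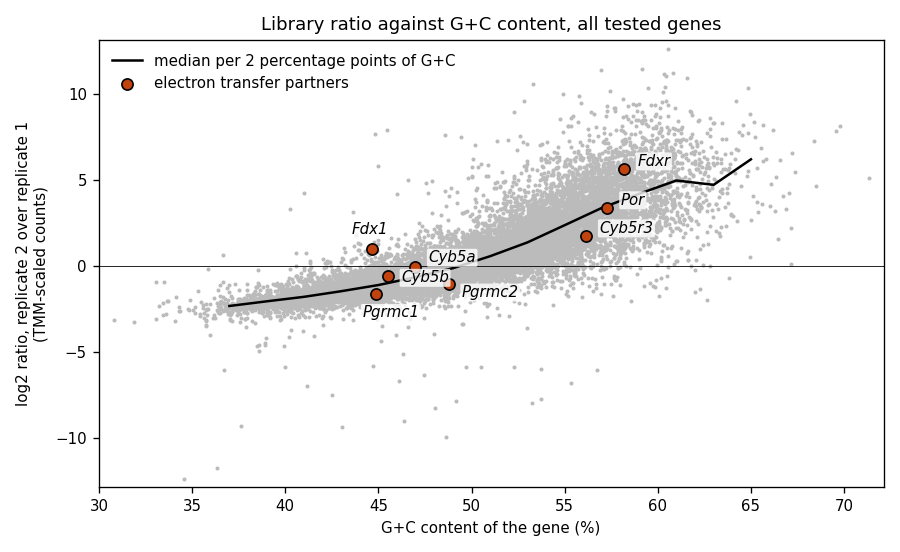
Log2 ratio of replicate 2 to replicate 1 on TMM-scaled counts against G+C content in percent for all tested genes (grey), with the median per 2 percentage points (line) and the 8 genes (filled circles). The line passes from -1.10 at 44 to 46% to 3.38 at 56 to 58%, with Por close to it and Fdx1 above it.

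With the G+C trend removed, 2 members were called higher (Fdx1 and Fdxr), against 12.6% of 14274 genes, and 1 was called lower (Cyb5r3), against 13.4%. Fdxr stayed higher at a log2 ratio of 1.63 and Fdx1 passed at 2.08. Por was at -0.22, Cyb5a at 0.54, Cyb5b at 0.38, Pgrmc1 at -0.56 and Pgrmc2 at -0.90, none of them called. Cyb5r3 turned from called higher, at 1.73, to called lower, at -1.32. With the G+C and length trends removed together the called members were the same 3, against 11.7% of genes higher and 13.0% lower, with Fdxr at 1.34, Fdx1 at 1.30 and Cyb5r3 at -1.23. Next, the composition of the deposited transcript that led by mean share over both libraries was used in place of the gene's mean. Fdx1 (0.82) and Fdxr (0.94) then fell short of 2-fold, while Por (1.84) was called higher and Cyb5r3 (-2.01) and Pgrmc2 (-1.18) lower. For Por that transcript was Por-209 (53.0% G+C), which held 4.23 counts in replicate 2, against 3512 for Por-201 (58.3% G+C). No member was therefore called in the same direction under TMM scaling and all 3 of these corrections.

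**Figure D5:**
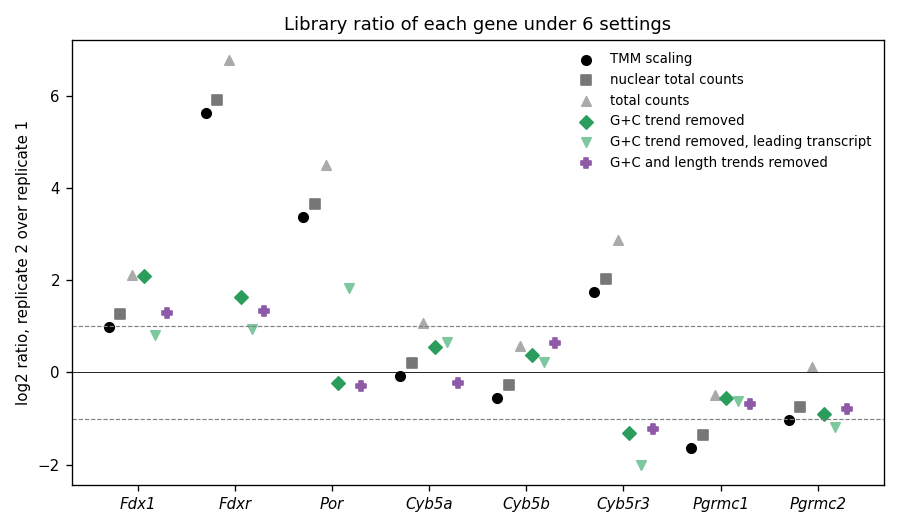
Log2 ratio of replicate 2 to replicate 1 for each of the 8 genes under 6 settings, with dashed lines at a 2-fold difference. Fdxr and Fdx1 stay above 0 in these 6 settings (Fdx1 was at -0.95 with the length trend alone removed, not drawn) and Pgrmc1 below 0, while Cyb5r3 lies between 2.87 and -2.01.

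Genes outside the list with the levels most like each member's were found by distance in log2 nuclear TPM over the 2 libraries. Gpam and Mapkapk2 were nearest to Por, Rps28 and Rpl19, both of the ribosome, to Fdxr, and Rps6 and Acly to Fdx1. Slc25a5 and Echs1 were nearest to Cyb5a, Serpinb6a and Tsc22d1 to Cyb5b, Rpl12 and Tmem50a to Cyb5r3, Hsp90b1 and Calm2 to Pgrmc1, and Nckap5 and Bcas2 to Pgrmc2. Distances ran from 0.00601 for Nckap5 to 0.385 for Rpl19.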

How the data were processed

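Per the deposited notes, reads were placed on mm10 with GENCODE M4 and quantified from transcriptome alignments. The sources used here do not name the aligner or quantifier. The deposited tables give expected counts, TPM and FPKM per gene and transcript, posterior mean TPM with an interval (treated as a score), and each transcript's share in percent. Length fields in bases were used as deposited. Of 43346 Ensembl genes, 42462 had a symbol. Annotation, G+C content and sequences came from GENCODE M21 (GRCm38), so releases differ. Nuclear copies of mitochondrial genes (15) matched a mitochondrial transcript at 90% identity over 50% of their length (BLAST 2.17.0); near-identical copies used 95% over 50%.

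Expected counts were rounded per gene. Genes reaching 20 counts over both libraries were scaled with TMM (edgeR 4.0.16, R 4.3.3). TMM centres the ratios of most genes, so each direction is relative to that centre. Each gene was tested with an exact binomial test (SciPy 1.17.1) given its summed count, adjusted over all tested genes; log2 ratios used a prior count of 0.5. The test compares reads of libraries. Trends were fitted with mgcv 1.9.3. The procedure was run on simulated gene counts with counting error only, without or with a straight G+C trend. Shifts between transcript models were not simulated, so that run does not vouch for the calls here. DESeq2 1.42.0 size factors, other filters, prior counts and scalings were alternatives. The members and lists (16 lists, 103 entries, all found) were chosen with earlier results of these data known. Named genes were all members, the 3 highest and 1 lowest of each list by mean nuclear TPM, the 2 nearest genes in level (pseudocount 0.1) and models of at least 5% of a member. The values of 1 gene that this rule names are not reported here. No protein sequences were used here.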

Additional observations from a re-analysis of the deposited data

How the results depend on the processing

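The number of members called higher in replicate 2 was 3. It was 5 with total counts as library sizes, and 4 with nuclear total counts or at a 1.5-fold minimum. It was 2 with the G+C trend, the length trend or both removed, and 2 at a 4-fold minimum. With the G+C trend of the leading transcript removed it was 1. The number called lower was 2, and it was 0 with total counts and 1 with nuclear total counts. It was 1 with the G+C trend or the G+C and length trends removed, and 3 with the length trend alone removed. At a 4-fold minimum, a setting added after seeing the data for lower calls, 0 were lower. Over all genes 5231 were higher and 3988 lower; this was 7769 and 567 with total counts, 1805 and 1917 with the G+C trend removed, 1672 and 1859 with G+C and length removed, 1697 and 1778 with the leading transcript's G+C, 5794 and 2978 with nuclear totals, 3983 and 5622 with the length trend removed, and 3725 and 824 at a 4-fold minimum. Total counts moved the median log2 ratio of all genes from 0.10 to 1.24 and nuclear totals to 0.39, so directions near 0 depend on the scaling. Direction turned with total counts for Cyb5a (1.06), Cyb5b (0.58) and Pgrmc2 (0.11), and with nuclear totals for Cyb5a (0.21). It turned with the G+C trend removed for Por (-0.22), Cyb5a (0.54), Cyb5b (0.38) and Cyb5r3 (-1.32). With G+C and length removed it turned for Por (-0.29), Cyb5b (0.63) and Cyb5r3 (-1.23), with the leading transcript's G+C for Cyb5a (0.66), Cyb5b (0.22) and Cyb5r3 (-2.01), and with the length trend removed for Fdx1 (-0.95). The cause was not tested. Removing the length trend also made Cyb5a called lower (-1.99) and ended the call of Cyb5r3 (0.96). DESeq2 size factors, another prior count and other count filters changed no member's direction or call. All 8 genes stayed detected at every TPM minimum tried. The mean log2 ratio of microsomal P450 enzymes to Por was 4.90, and 1.80 without Cyp21a1. With 2 libraries, leaving out either only gives the value of the other, so it says nothing of stability. No paired analysis was possible because there is 1 group. With 1 biological sample and 256 and 258 counts of Fdxr and Por in replicate 1, counts per transcript model there are the least precise.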
